A study of Mus musculus with 4 samples.

Results

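Collagen genes were taken as the mouse genes whose symbol is Col, a number, the letter a and a number, such as Col1a1. The list of regions bound by PRDM6 (peaks) held 13977 entries, of which 100 were assigned by the authors' annotation to a gene of this family. These 100 peaks belonged to 20 collagen genes out of 5243 genes with any assigned peak, and the reference annotation of the family held 44 genes. Look-alike symbols that are not collagens, such as Colec10, Colec12 and Colca2, were not counted.

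PRDM6, a PR domain protein with zinc fingers, is found in smooth muscle cells (SMCs). All libraries came from cultured SMCs of the outflow tract, the vessels leaving the heart, of late-gestation mouse embryos, and all cells carried a lentivirus that drove expression of PRDM6 with a FLAG tag. The 4 libraries fell into 2 PRDM6 ChIP libraries, made with an antibody to the tag after micrococcal nuclease digestion and sonication, and 2 Input libraries of chromatin without immunoprecipitation. Binding was therefore that of a tagged, overexpressed protein in culture, the study describes the immunoprecipitations both as made from one sample and as independent replicates, and no value of the Input group was held in the list. The peaks carry no expression level, so the cell type could not be checked against its marker genes, and collagen RNA was not analysed here.

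Collagens are the structural proteins of the extracellular matrix, built from chains that wind round each other in a rope-like helix. Fibrillar collagens form the load-bearing fibres of the arterial wall, with collagens I and III as the bulk and collagen V inside the fibre. Collagen IV forms the sheet of the basement membrane round each SMC, collagen VI forms beaded filaments close to the cell, collagen VIII forms a hexagonal network that SMCs lay down on injury or migration, and the FACIT collagens decorate the surface of fibres.

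The sequences round the summits of 4 of the 5 collagen peaks with the highest significance are shown because these are among the strongest sites assigned to the family. The fifth line, at the shared start of Col4a1 and Col4a2, and the sixth, inside Col8a1 at a peak that the annotation gave to the neighbouring gene Cmss1, were added after their values were seen. Each run is 201 bases of the plus strand of mm10 (GRCm38), 100 on each side of the summit of the matched peak, which for most peaks is the midpoint of the summits in both replicates. The replicate summits lay within 3 bp of each other at Col5a3, 15 bp at the Col12a1 start, 84 bp at Col4a1 and 41 bp at the Col8a1 site. At Col5a2 they lay 106 and 105 bp from the matched summit, just outside the bases shown, and at Col3a1 only the first-listed summit lies in the window. Capitals mark CATTCC, which reads GGAATG on the other strand and is the core of the site of TEAD factors, and in the Col3a1 line the full 8-letter TEAD site ACATTCCT.
Col5a3 chr9:20794285-20794485: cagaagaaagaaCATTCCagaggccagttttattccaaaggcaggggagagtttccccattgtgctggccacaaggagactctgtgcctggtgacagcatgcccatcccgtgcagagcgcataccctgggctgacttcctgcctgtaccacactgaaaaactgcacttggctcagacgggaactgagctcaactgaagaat
Col5a2 chr1:45502737-45502937: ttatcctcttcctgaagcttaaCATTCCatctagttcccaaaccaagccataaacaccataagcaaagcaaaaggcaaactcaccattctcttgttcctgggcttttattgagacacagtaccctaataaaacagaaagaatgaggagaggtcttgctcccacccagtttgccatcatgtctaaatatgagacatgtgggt
Col3a1 chr1:45311331-45311531: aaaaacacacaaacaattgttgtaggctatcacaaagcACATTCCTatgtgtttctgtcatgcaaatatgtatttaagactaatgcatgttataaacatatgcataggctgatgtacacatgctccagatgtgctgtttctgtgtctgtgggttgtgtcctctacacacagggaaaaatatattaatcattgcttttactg
Col12a1 chr9:79718965-79719165: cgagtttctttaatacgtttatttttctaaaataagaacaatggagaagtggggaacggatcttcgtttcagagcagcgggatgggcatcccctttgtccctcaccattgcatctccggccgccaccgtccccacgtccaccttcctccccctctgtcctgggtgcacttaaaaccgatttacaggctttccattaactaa
Col4a1 chr8:11312725-11312925: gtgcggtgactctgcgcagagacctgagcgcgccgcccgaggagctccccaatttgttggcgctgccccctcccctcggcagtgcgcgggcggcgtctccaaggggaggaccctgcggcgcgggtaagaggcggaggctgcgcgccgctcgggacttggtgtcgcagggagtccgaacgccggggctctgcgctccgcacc
Col8a1 chr16:57671983-57672183: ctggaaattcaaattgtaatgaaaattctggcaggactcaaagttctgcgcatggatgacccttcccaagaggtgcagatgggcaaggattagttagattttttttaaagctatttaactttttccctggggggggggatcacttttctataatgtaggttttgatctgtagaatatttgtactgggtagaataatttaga

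The windows differ in base composition. At Col3a1 35.8% of the bases were G or C and no CpG was present, and the Col5a2 window also lacked a CpG at 41.8%. The start shared by Col4a1 and Col4a2 had 73.6% G or C and 26 CpGs. The window at the Col12a1 start stood between them, with 49.3% and 10 CpGs.

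PRDM6 peaks were found at collagen genes of most structural classes, and a few genes held most of them. Of the 44 genes, 20 had at least 1 assigned peak (45.5%, 95% Wilson interval 31.7 to 59.9), against 19.9% of all coding genes. At least 8 peaks were assigned to 7 collagen genes (15.9%), against 1.17% of coding genes, and these 7 held 73 of the 100 peaks. They were Col8a1 with 14, Col5a2 with 13, Col3a1 with 12, Col11a1 and Col1a2 with 9 each, and Col12a1 and Col14a1 with 8 each. A single peak was assigned to 6 genes and none to 24. The count by class ran from 51 peaks at 7 of 11 fibrillar genes to none at any of the 4 transmembrane collagen genes, Col13a1, Col17a1, Col23a1 and Col25a1.

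**Figure D1:**
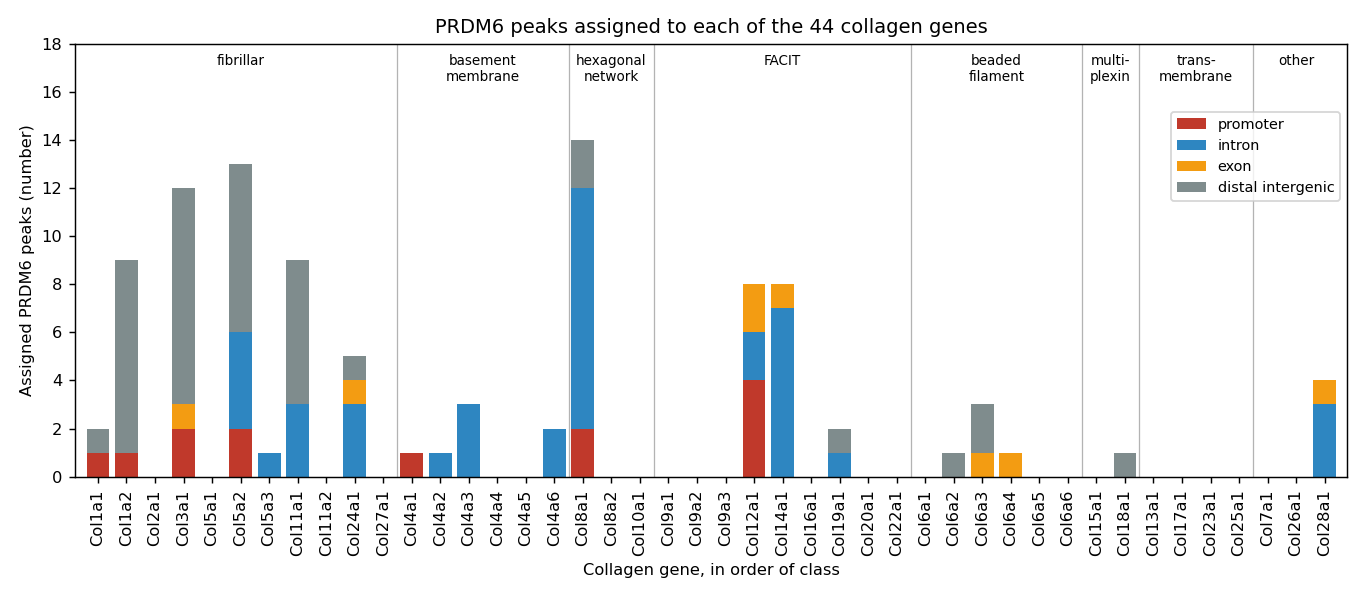
Number of PRDM6 peaks assigned to each of the 44 collagen genes (vertical axis), in order of class along the horizontal axis and coloured by the annotated gene region. Col8a1 has the tallest bar with 14 peaks, and 24 genes have none.

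Collagen genes are long, and long genes of every kind more often had a peak. The median gene length was 114 kb for collagens and 17.4 kb for all coding genes, and it was 55 kb for the coding genes with a peak. Among genes of 20 to 50 kb, 4 of 11 collagens and 19.6% of all coding genes had a peak. The corresponding figures were 9 of 18 and 39.6% for 50 to 150 kb, and 6 of 11 and 59.6% above 150 kb. In the longest class the collagens thus stood no higher than other genes, and among genes under 20 kb, of which 9% had a peak, Col1a1 was the only one of 4 collagens with a peak. The mean number of peaks per gene in the 20 to 50 kb class was 2.09 for collagens and 0.387 for all genes, where Col3a1 and Col1a2 supplied nearly all of the collagen peaks. It was 2.5 against 0.986 for 50 to 150 kb and 2.73 against 2.56 above 150 kb, so the excess was small among the longest genes. A narrower assignment gave 18 of 44 collagen genes (40.9%) with a peak in the gene body or the 3 kb upstream of it, against 15.5% of coding genes. The part of gene length in the excess was not tested beyond these classes.

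The strength of a peak is given as the −log10 p-value of MACS2, for the matched peak the smaller of the values in both replicates. Collagen peaks had a median of 6.15 (quartiles 4.38 and 7.71) against 5.53 for all peaks (4.39 and 6.92), so the distributions overlapped over most of their range. The medians were 7.71 and 6.92 in the first-listed replicate and 7.20 and 6.61 in the second-listed one. Each replicate alone thus gave the collagen peaks the higher median, by less than the distance between the quartiles. The lowest collagen value was 3.05 and the highest 16.8. A fragment height could be recovered from the p-value for 45 collagen peaks in the first-listed replicate, with a median of 16 fragments, and for 61 in the second-listed one, with a median of 15. Over all peaks a height was recovered for 58.3% in the first-listed replicate and 63.5% in the second-listed one, with medians of 14 and 13 fragments. Heights thus cover only part of either set, and in the first-listed replicate a smaller part of the collagen peaks. The replicates ranked the peaks only loosely, with a Spearman rho of 0.283 across the 100 collagen peaks and 0.263 across all peaks, where the peaks share their libraries and their input.

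Few collagen peaks met a strict limit on reproducibility, as in the list as a whole. Only 3 of the 100 peaks had a global irreproducible discovery rate (IDR) of at most 0.05, against 3.33% of all peaks, and they lay at Col5a3, Col3a1 and Col5a2, all fibrillar genes. The first peak past that limit was the one at the Col12a1 start, with a scaled score of 539 where 540 stands for the limit, and Col5a2 was the nearest inside it with 682. The lowest score in the list was given to 30 collagen peaks (21.9 to 39.6%), against 41.4% of all peaks. A global IDR above 0.5 was given to 46 (36.6 to 55.7%), against 59.1% of all peaks, so fewer collagen peaks than peaks in general ranked at the bottom of the list.

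**Figure D2:**
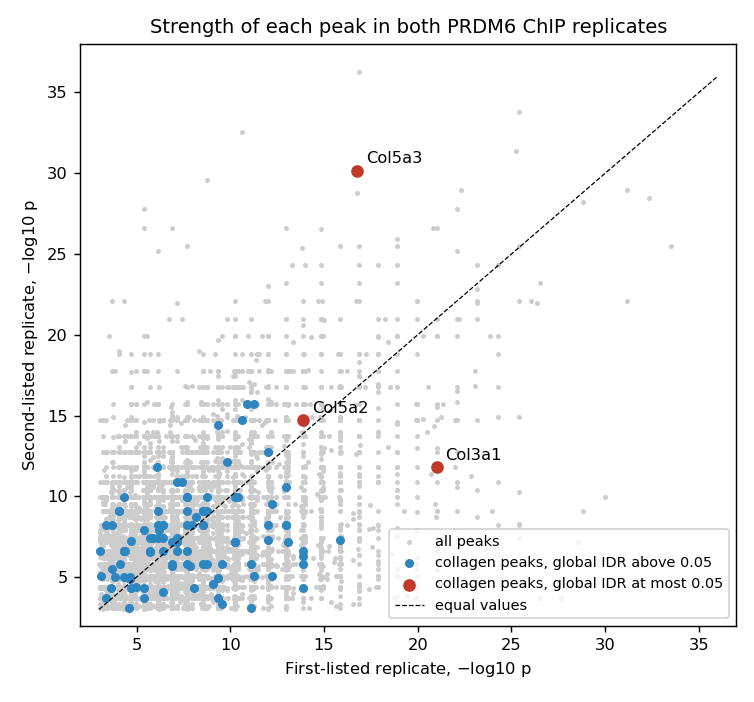
Strength of each peak as −log10 p in the first-listed (horizontal) and second-listed (vertical) PRDM6 ChIP replicate, with all peaks in grey, collagen peaks in blue and the 3 collagen peaks that met the IDR limit of 0.05 in red. Col5a3 lies at 16.8 and 30.2, Col3a1 at 21.0 and 11.8, and Col5a2 at 13.9 and 14.7.

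The 3 peaks that met the IDR limit lay at genes of collagens V and III. The assigned peak with the highest matched value lay in an intron of Col5a3, which encodes a minor chain of collagen V, at chr9:20794105-20794757, 20310 bp downstream of the start of the gene. It reached 16.8 in the first-listed and 30.2 in the second-listed replicate, where its height was 36 fragments, and it ranked 76th among all peaks. It was the only peak of Col5a3, so that the strongest of the 100 assigned peaks was at a gene with no others. The peak at the start of Col5a2, which encodes another collagen V chain, covered chr1:45501651-45504057 and gave 13.9 and 14.7 with 22 fragments in each replicate. For Col5a1, the chain found in nearly all collagen V and encoded by a gene of 153 kb, no peak was assigned.

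The start of Col3a1, the only chain of collagen III, lay in the widest of all 13977 peaks. It covered 5966 bp (chr1:45308962-45314927), from 2576 bp before the start to 3389 bp after it, and it was 5951 and 5690 bp wide in the replicates. Its values were 21.0 and 11.8, with 29 and 19 fragments. The summits of the replicates lay 2187 bp apart within it, so the position of strongest binding in this broad region differed between the libraries, and the sequence shown follows the first-listed one. A further peak of 1767 bp began just past its end, with values of 15.8 and 7.31.

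Col3a1 and Col5a2 are neighbours that are transcribed towards each other on chromosome 1, with 24.6 kb between their ends. Their 25 peaks followed each other over 586 kb (chr1:45042936-45628597) with no peak of another gene among them, at 4.27 per 100 kb and with 9 peaks of 1500 bp or more. When the genome was divided into 4380 windows of 600 kb, the median window held 2 peaks and 9 windows held 25 or more. The span of 586 kb was set by the 25 peaks themselves and not by these windows. It need not lie within a single window, so the windows give only a scale for the count. A single peak lay between the genes, with values of 9.82 and 12.1, and the others spread over the bodies and far upstream on either side. Of the Col3a1 peaks 9 were distal intergenic, the farthest 268130 bp upstream with 8.52 and 9.10, and the Col5a2 peaks reached 122205 bp upstream. The first-listed replicate was the higher in 11 of the 25. Peaks along such a domain share their surroundings and are not independent sites, and assignment to the nearest start does not show which gene a distal site acts on.

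**Figure D3:**
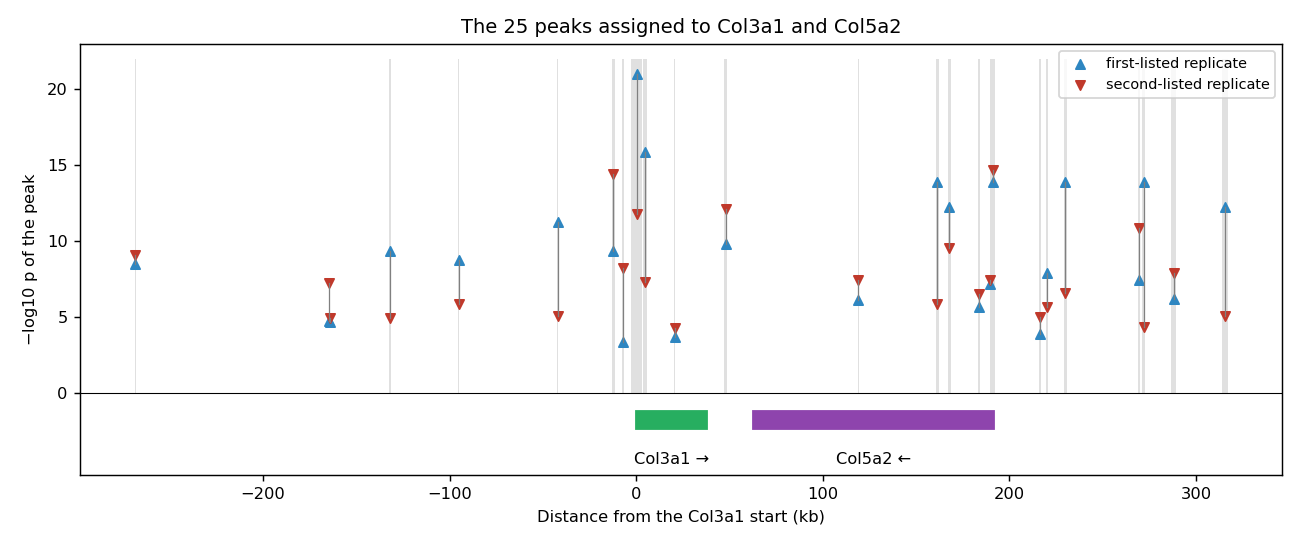
The 25 peaks of Col3a1 and Col5a2 by distance from the Col3a1 start in kb (horizontal) and −log10 p in each replicate (vertical), with triangles for the replicates, grey bands for the peak widths and bars for the genes. The highest values of both replicates stand at the starts of the genes, 21.0 at Col3a1 and 14.7 at Col5a2.

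The genes of collagen I, a main collagen of the arterial wall, had peaks upstream and none in their bodies. Col1a2 had 9, all upstream, from 700 bp to 154106 bp before its start and together within 154 kb. The nearest gave 4.04 and 9.10, and the strongest by matched value, the farthest one, gave 7.71 and 9.10. Of these 9 peaks, 4 fell between 56282 and 87584 bp upstream, none of them above 6.42 in either replicate. Col1a1 had 2 peaks, one 1905 bp upstream with 12.03 and 7.31 and one 22120 bp upstream with 5.42 and 7.92. All collagen I peaks had an IDR above 0.05.

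The other fibrillar genes with peaks were Col11a1 and Col24a1. Col11a1, which encodes a chain of collagen XI that also joins collagen V chains in some tissues, had 9 peaks over 433 kb, 6 of them distal intergenic and 3 close together in an intron about 22 to 23 kb from the start. The strongest lay 76684 bp upstream with 10.6 and 14.7, while its neighbour 74948 bp upstream gave 11.1 in one replicate and 3.09 in the other. Col24a1 had 5 peaks, with matched values from 3.68 to 7.14. No peak was assigned to Col2a1 and Col11a2, chains of cartilage fibrils, or to Col27a1.

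**Figure D4:**
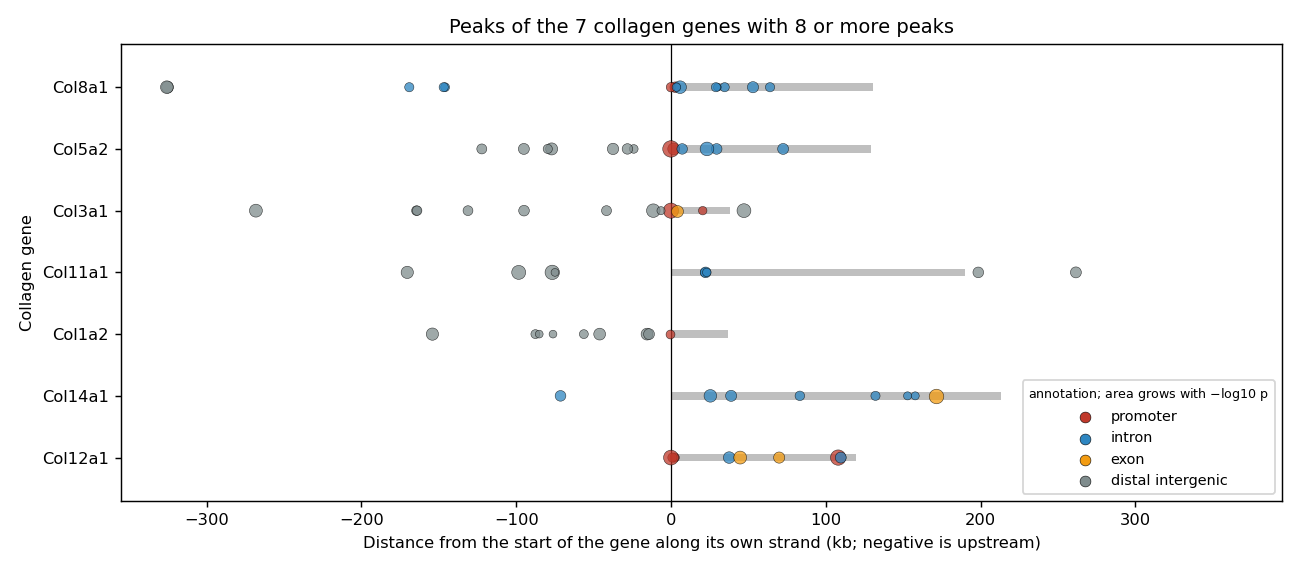
Peaks of the 7 collagen genes with 8 or more peaks by distance from the start of the gene in kb (horizontal), coloured by annotated region, with grey bars for the gene bodies and point area growing with −log10 p. Col1a2 has all 9 peaks upstream, and Col14a1 has 7 of 8 within its body.

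Among the network collagens, Col8a1 had the most peaks of the whole family and Col4 genes had few. Col8a1 encodes the chain of collagen VIII found in vessels. Its peak at the start was 2412 bp wide with 9.06 and 4.55, and the strongest of its 14 assigned peaks tied at a matched value of 8.25, one 5894 bp downstream with 12.03 and 8.25 and one 325663 bp upstream with 12.95 and 8.25. Their median of 4.36 lay under that of all peaks, 5.53, and 9 of the 14 lay in the gene or on its start. The 3 peaks annotated as intronic from 145925 to 169051 bp upstream lay in an intron of the long non-coding RNA gene Gm49575 and not in Col8a1, and the remaining 2 were more than 325 kb upstream. A further 4 peaks inside Col8a1 had been given to Cmss1, whose start was nearer by the annotation. One of them (chr16:57671129-57672311) had values of 21.0 and 19.9 and the highest possible score of 1000, so that its matched value stood above that of every peak assigned to a collagen gene. Col8a2, which encodes the partner chain, had no peak, nor had Col10a1 of growth cartilage.

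Col4a1 and Col4a2 encode the chains of the common basement membrane and start next to each other on opposite strands. One peak of 360 bp (chr8:11312613-11312972) covered both starts with 6.42 and 6.61, and the annotation counted it for Col4a1. Col4a2 had an intronic peak with 12.95 and 8.25. The chains of specialised membranes differed among themselves, with 3 intronic peaks in Col4a3, 2 in Col4a6 on the X chromosome and none at Col4a4 or Col4a5.

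Col12a1 and Col14a1, both FACIT genes, had 8 peaks each, and most of these peaks were in the gene bodies. FACIT collagens bind to the surface of fibrils and do not form fibres themselves. Col12a1 had a peak of 1286 bp at its start with 11.3 and 15.7 and another near the far end of the gene with 12.03 and 12.8, annotated as a promoter because a shorter transcript starts 2146 bp away. Its 8 peaks covered 110 kb, at 7.25 per 100 kb the densest of the loci with 8 or more. In Col14a1, 7 peaks lay in the gene and the strongest, on an exon of the transcript Gm49257 within it and on none of Col14a1, gave 10.9 and 15.7, whereas the eighth lay in the neighbouring gene Deptor. Col19a1 had 2 peaks, and Col9a1, Col9a2, Col9a3, Col16a1, Col20a1 and Col22a1 had none.

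Collagen VI, the beaded filament at the cell surface, had 5 peaks at 3 of its 6 genes. Col6a3 had 3, with matched values of 3.70, 9.98 and 7.17. Col6a2 had 1 peak 27101 bp upstream (7.17 and 6.61), and Col6a4 had 1 at an exon (8.52 and 8.25). Col6a1, Col6a5 and Col6a6 had none. Of the multiplexins, which link basement membranes to the matrix beneath, Col18a1 had 1 peak 40154 bp upstream (8.52 and 8.25) and Col15a1 none. Col28a1 had 4 peaks within the gene, the strongest with 12.95 and 10.6, and Col7a1, the anchoring fibril of skin, and Col26a1 had none.

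By gene region, collagen peaks lay at promoters (within 3 kb of a start) in 13 of 100 cases, against 21.3% of all peaks. The interval of the collagen share, 7.76 to 21.0%, ended just under that value. Introns held 40 collagen peaks against 35.9% of all peaks, distal intergenic sequence held 39 against 37.2%, and exons held 8 against 4.1%, where the interval of the collagen share began at 4.11%. Of the 8 exonic peaks only 4 overlapped an exon of their collagen gene in the basic gene models, 2 in Col12a1 and 1 each in Col28a1 and Col6a4. The other 4 were labelled by a short Col3a1 transcript or by a transcript of another gene. For 7 of the 100 peaks the nearest start of a coding gene in the reference belonged to another gene than the one assigned. A start was overlapped by 5 collagen peaks, against 6.64% of all peaks, namely at Col3a1, Col5a2, Col12a1, Col4a1 and Col8a1. Peaks more than 100 kb from a start numbered 13, against 19.3%. Within 1 kb of a start lay 7 collagen peaks (3.43 to 13.7%), against 14.7% of all peaks. The share of collagen peaks near a start was thus lower than in the list. The difference was beyond counting error at 1 kb and at its edge at 3 kb. The shares in introns and distal intergenic sequence differed by less than counting error. These intervals treat the peaks as independent, though the 13 promoter peaks came from 7 genes, with 4 peaks from Col12a1. The part of gene length in these shares was not tested.

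Collagen peaks were wider than the list as a whole. Their median was 777 bp against 600 bp, and 18 of 100 were at least 1500 bp wide (11.7 to 26.7%), against 6.15% of all peaks. Of these 18, 9 lay at Col3a1 and Col5a2, and outside that pair 9 of 75 were as wide, 12%. Wide peaks were also found at Col1a2, where 3 reached 1500 bp, among them one of 2919 bp 46066 bp upstream. The median gap between the replicate summits was 175.5 bp in collagen peaks and 121 bp in all peaks. Since several peaks come from the same gene, the intervals cover counting error only.

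**Figure D5:**
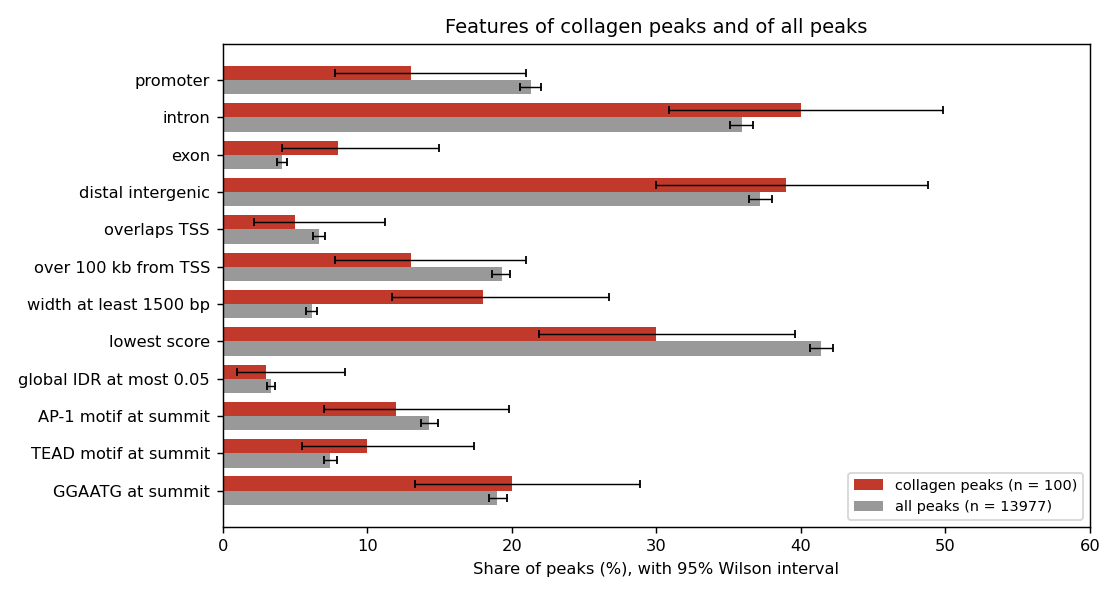
Share of the 100 collagen peaks (red) and of all 13977 peaks (grey) with each feature, in percent (horizontal), with 95% Wilson intervals. The shares with a width of at least 1500 bp, 18% and 6.15%, have intervals that do not touch.

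Motifs were counted on both strands wholly within 100 bp of the matched summit. In 43 of the 100 collagen peaks, against 32.6% of all peaks, both replicate summits lay outside that window, among them 7 of the 12 peaks with AP-1 and 2 of the 10 with TEAD described next. TGACTCA, the site of AP-1 factors, was present in 12 collagen peaks at 10 genes, against 14.3% of all peaks. It was in none of the 13 promoter peaks (interval up to 22.8%) and in 12 of the 87 others, against 8.33% and 15.9% over all peaks. Among the collagen peaks with it was the strongest one of Col14a1, 49 bp from the matched summit and 39 and 59 bp from the summits of the replicates. In the strongest peak of Col11a1 it lay 93 bp from the matched summit but 525 and 338 bp from those of the replicates. An intronic Col5a2 peak held it at 2 positions, 43 and 18 bp from the matched summit and 92 bp or more from either replicate summit. The TEAD site (AGGAATGC, AGGAATGT, GGGAATGC or GGGAATGT) was present in 10 collagen peaks at 8 genes, against 7.45% of all peaks. At the Col3a1 start, in the sequence shown, it lay 58 bp from the matched summit (chr1:45311369-45311376). The summits of the first-listed and second-listed replicates lay 60 and 2127 bp from it. Only 1 collagen peak, inside Col6a3 but on none of its exons, held both sites, at 132 bp or more from the summit of either replicate.

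The 6 letters GGAATG alone, which were counted after the sequences were seen, occurred in 20 collagen peaks against 19% of all peaks. They were in all 3 peaks with an IDR of at most 0.05, at 85 bp from the matched summit in Col5a3, 75 bp in Col5a2 and 58 bp in Col3a1. At Col5a2 both replicate summits lay outside the window, and at Col3a1 the second-listed one did. TTTCAT or TTTCCT was present in 47 collagen peaks against 43.1%, and the CArG box, the site of serum response factor, in 1 against 1.41%. For each motif, within 100 bp of the matched summit, the share of all peaks lay within the interval of the collagen share. Within 50 bp the TEAD site was in 9 collagen peaks (4.81 to 16.2%) against 4.09% of all peaks, which lies just outside the interval. A match in sequence does not show binding of the factor.

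Genes that make, process or bind collagen were counted beside the family. Of 46 such genes 22 had a peak (47.8%), with 63 peaks in all, against the 19.9% of coding genes given above. The collagen-binding small proteoglycans had a peak at 5 of 6 genes and the receptors at 5 of 7, whereas the enzymes and chaperones of the endoplasmic reticulum had one at 5 of 17. Cross-linking enzymes had a peak at 3 of 5 genes, propeptide proteases and their enhancers at 3 of 8 and export factors at 1 of 3. These shares were not matched for gene length. Of all coding genes, 9% of those under 20 kb had a peak and 39.6% of those of 50 to 150 kb. Many endoplasmic reticulum genes and most of the proteoglycan genes were under 20 kb, whereas most receptor genes were longer. The part of gene length in these differences was not tested. The most peaks were assigned to Itgb1, the integrin subunit shared by the collagen-binding integrins, and to P3h2, a prolyl hydroxylase, with 7 each, and to Prelp, a proteoglycan that anchors collagen to membranes, with 6. The only peak with an IDR of at most 0.05 lay 50209 bp upstream of Itga11, a collagen-binding integrin chain, with 11.4 and 16.4.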

How the data were processed

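The 2 PRDM6 ChIP and 2 Input libraries were sequenced by the authors, who aligned filtered read pairs to mm10 with BWA, called peaks of each ChIP replicate over its input with MACS2, matched the replicates by IDR and annotated each matched peak with its nearest gene. The deposited list held a scaled IDR score and −log10 p-values as the authors' programs wrote them. Its signal column held a placeholder, so −log10 p, which grows with depth as well as with binding, stood for strength. Which library is the first-listed replicate is not given in the sources used here, nor are library totals, so depth is known only as heights recovered from Poisson tails with background means of 2.61 and 2.39 fragments (tolerance 0.0002), tested on simulated data.

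Collagen genes were found by symbol. All 44 were accounted for by class, and values were given for the 5 genes with the most peaks, peaks with an IDR of at most 0.05, the 5 strongest peaks and the chains of collagens I, III, IV, V, VI and VIII. Others named were chosen after their values were seen. Of the collagen-related genes, those with an IDR of at most 0.05 and the 3 with the most peaks were named. Members, gene lists and motifs were chosen with earlier results of these data known. Since no sample contrast exists in 1 matched list, no test was run, and shares stand beside those of all 13977 peaks or 21728 coding genes, with Wilson intervals that cover counting error only. The matched summit lay within 1 bp of the midpoint of the replicate summits for 72 of the 100 collagen peaks. Alternatives (IDR limits, distance limits, gene body assignment, promoter width, single replicates and motif windows) are given in the closing section. The sequence at 1 of the 5 strongest peaks is not reported here. Gene models were GENCODE M21 basic, names of transcripts in exon and intron labels came from the full M21 set, and sequence came from GRCm38. Tools were pysam 0.24.0, pandas 2.3.3, NumPy 2.4.6, SciPy 1.17.1 and matplotlib 3.10.9 under Python 3.11.15.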

Additional observations from a re-analysis of the deposited data

How the results depend on the processing

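A global IDR limit of 0.05 on all peaks left 3 collagen genes with 3 peaks and 1 collagen-related gene; 66.7% of those peaks were at promoters, 0 distal intergenic and 0 exonic, their median −log10 p was 13.9, and AP-1 was in 0% and TEAD in 33.3% of them. A limit of 0.01 left 1 gene with 1 peak, intronic (100%, with promoter, intergenic and exonic shares of 0) and with −log10 p 16.8, and 0 collagen-related genes. The number of the 100 collagen peaks within the IDR limit was 1 at 0.01 (0.994% of all peaks) and 8 at 0.1 (5.96% of all peaks). Peaks within 20 kb of a start numbered 37 at 12 collagen genes, and 62 overlapped a collagen gene or its 3 kb upstream. The matching shares of all peaks are not given here, so these counts are not set against the list. Promoters of 1 kb held 7% (14.7% of all). Leaving out each replicate in turn gave a median −log10 p between 7.2 and 7.71, both above the matched value because that value is the smaller of both. Searching the whole peak gave AP-1 in 30% of collagen peaks (34.3% of all) and TEAD in 26% (19.2% of all), and a window of 50 bp gave TEAD in 9% (4.09% of all). Alternatives added after the data were seen were the removal of Col3a1 and Col5a2, which left 1 peak within the IDR limit of 0.05, and the letters GGAATG, in 20% (19% of all). In all, 29 values moved, and 28 stayed within the error of the value reported or, as counts, close to it. The 50 bp window was among the 28. There the TEAD share of all peaks, 4.09%, nevertheless fell just below the interval of the collagen share, 4.81 to 16.2%. No paired analysis was possible because the list holds 1 matched set of peaks, with no value of the Input group and no contrast between groups. The depth of each library is not known here, so a gene without a peak is not shown to be unbound.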
